A study of Mus musculus with 20 samples.

Results

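Expression of 10 genes of the colonic mucus layer was compared across 5 groups of mice with and without chemically induced colitis. The genes, 10 of 21423 gene symbols named on the arrays, were chosen by symbol: the gel mucin gene Muc2 with Fcgbp, Zg16, Tff3 and Spink4, whose products are secreted with it, the membrane mucin genes Muc1, Muc4 and Muc13, and Agr2 and Spdef, which act inside the goblet cell. The choice was made with earlier results of these data known, so counts among them are a description. All 10 were found, on 11 probe sets, because Muc2 has 2, and all 10 lay above the level set for dim probe sets. Each group held 4 female C57BL/6JOlaHsd mice of about 11 weeks, with 1 array per mouse from the middle part of the colon. Of the colitis groups, which all drank 3% dextran sulphate sodium (DSS) for 5 days, the cyclosporine group received 25 mg/kg cyclosporine A by mouth each day between day 1 and day 15. The probiotic colitis group received the bacterial strains L930BB and IM386 through an intragastric tube before DSS and together with it, and the untreated colitis group received saline. The probiotic healthy group had the same strains without DSS, and the untreated healthy group had saline without DSS. Cyclosporine was not given to healthy mice, so what the drug alone does to these genes was not measured, and the sampled tissue was a piece of middle colon and not isolated goblet cells.

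Mucus of the colon is built by goblet cells. Muc2 protein forms large disulphide-linked nets that swell on release, and its long stretches of serine and threonine carry dense O-linked sugars that hold water. Fcgbp is bound into that net, Zg16 is a lectin-like protein that binds the cell wall of Gram-positive bacteria, Tff3 is a trefoil peptide of epithelial repair, and Spink4 is a small secreted peptide of the Kazal protease inhibitor family. Muc1, Muc4 and Muc13 stay anchored in the apical membrane and form the glycocalyx under the gel. Agr2 is a disulphide isomerase of the endoplasmic reticulum that Muc2 needs for its folding, and Spdef is an ETS-family transcription factor of goblet cell maturation. DSS is a sulphated polymer that damages the colonic epithelium, and cyclosporine A inhibits calcineurin and with it T cell activation.

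Promoters are shown for Muc1, Muc2, Agr2 and Spdef, because these genes were higher together in untreated colitis and have an entry in the RefSeq table of build GRCm38.p6. Each line gives the 250 bases before the annotated start, 5′ to 3′ on the strand of the gene, with the matches to 4 searched words in capitals.
Muc1, chr3:89228806-89229055, plus strand: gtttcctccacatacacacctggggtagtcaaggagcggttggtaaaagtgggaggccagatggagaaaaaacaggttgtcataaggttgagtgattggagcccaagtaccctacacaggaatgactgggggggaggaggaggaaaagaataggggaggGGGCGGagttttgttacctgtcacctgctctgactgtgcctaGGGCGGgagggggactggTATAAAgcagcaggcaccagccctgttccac
Muc2, chr7:141690090-141690339, plus strand: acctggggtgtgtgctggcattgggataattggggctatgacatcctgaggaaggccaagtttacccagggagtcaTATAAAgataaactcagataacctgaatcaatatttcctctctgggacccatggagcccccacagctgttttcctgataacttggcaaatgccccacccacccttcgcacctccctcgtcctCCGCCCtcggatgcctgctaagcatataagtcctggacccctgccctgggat
Agr2, chr12:35992675-35992924, plus strand: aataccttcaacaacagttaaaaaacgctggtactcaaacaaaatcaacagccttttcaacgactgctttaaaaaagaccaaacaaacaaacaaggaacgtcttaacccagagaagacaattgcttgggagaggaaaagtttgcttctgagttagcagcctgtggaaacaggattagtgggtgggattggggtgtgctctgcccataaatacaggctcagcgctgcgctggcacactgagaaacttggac
Spdef, chr17:27728952-27729201, minus strand: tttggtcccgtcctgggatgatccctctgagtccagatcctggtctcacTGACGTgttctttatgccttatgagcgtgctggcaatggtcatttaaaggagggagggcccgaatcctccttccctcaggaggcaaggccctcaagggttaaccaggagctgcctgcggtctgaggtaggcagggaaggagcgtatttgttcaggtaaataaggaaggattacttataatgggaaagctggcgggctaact
The TATA word TATAAA, looked for on both strands like the others, stood 31 bases before the start in Muc1 and 174 bases before it in Muc2, and 12.4% of 32851 mouse promoters of this length held it. The GC box word GGGCGG stood 91 and 49 bases before the start of Muc1 and 52 bases before that of Muc2, where its reverse complement is printed, and 32.7% of promoters held it. The cyclic AMP response core TGACGT, held by 6.47% of promoters, was found 201 bases before the start of Spdef. The spaced STAT word TTCNNNGAA, held by 7.02% of promoters, was in none of these 4 windows and stood 140 bases before 1 of 2 annotated starts of Muc13. The window of Agr2 held none of the 4 words, so the printed promoters have no searched word in common. A match is a description of letters and not a measured binding site. Of the 10 genes 7 had a promoter entry. Zg16, Tff3 and Spink4 are named here without sequence.

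Values are on the log2 scale of the authors' normalisation, where a difference of 1 is a doubling, and an array's probe sets differ in brightness for reasons other than transcript number, so genes are not ranked against each other by level. Muc13 and Muc2 were among the brightest genes of these arrays, with means of 13.63 and 13.54 over 20 arrays, where the brightest probe set of the array reached 13.94. Both lie near the top of the measured range. Spdef was the dimmest of the 10 at 7.95, with 64.2% of tested genes below it. Array medians lay between 6.22 and 6.29, no arrays were identical, and precision is limited by how many arrays there are. A gene is said to rise or fall where limma's Benjamini-Hochberg adjusted p, over all 16739 genes tested, was under 0.05. The labelled tissue carried its markers: all 12 epithelial markers and all 11 goblet cell markers outside the 10 genes lay above the dim level in every group.

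In untreated colitis the mucus genes did not move as a block. Spink4, Muc1, Spdef, Agr2 and Muc2 rose compared with untreated healthy mice, by between 0.32 and 1.34 on the log2 scale, and the other 5 did not pass the test. The comparison asks what DSS injury does to the colon. The 5 of 10 that rose stand beside 11.7% of all genes tested that rose, and none of the 10 fell, beside 14.4% of all genes. The median difference was 0.30 over the 10 genes and -0.03 over all genes.

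Both the gel mucin Muc2 and the secreted peptide Spink4 rose. Muc2 had 13.54, 13.74, 13.81 and 13.72 in untreated colitis mice, against 13.40, 13.43, 13.48 and 13.24 in untreated healthy mice. All 4 colitis mice lay above all 4 healthy ones, and Muc2 rose by 0.32 ± 0.07 (standard error of the fit, adjusted p = 0.00202). The second Muc2 probe set, which averages lower, rose by 0.51 ± 0.08 (adjusted p = 0.000222). Both probe sets are bright, and whether a place near the top of the measured range reduced the Muc2 difference was not tested. In Spink4 the untreated colitis mice had 11.71, 12.30, 12.54 and 12.29, against 11.35, 10.74, 10.65 and 10.73 in untreated healthy mice. The lowest colitis value, that of mouse 5, still exceeded the highest healthy one, that of mouse 2, and Spink4 rose by 1.34 ± 0.19 (2.53-fold, adjusted p = 5.71e-05). Together with Muc1 these were the 3 of 10 genes whose groups did not overlap upward, beside 10.6% of all genes.

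The other secreted partners of Muc2 did not pass. Fcgbp had 12.01, 12.62, 12.55 and 12.65 in untreated colitis mice, against 12.24, 12.33, 12.47 and 12.16 in untreated healthy mice. Of the colitis mice 3 exceeded every healthy mouse and mouse 5 lay below them all, so that the difference was 0.16 ± 0.12 (adjusted p = 0.355). Without untreated colitis mouse 5 Fcgbp rose by 0.31 (adjusted p = 0.0242). Zg16 averaged 12.78 ± 0.18 in untreated colitis and 12.74 ± 0.12 in untreated healthy mice (SD, n = 4 each). Its difference was 0.04 with a 95% interval of -0.22 to 0.30 (adjusted p = 0.856), an interval that spans changes in both directions. Tff3 averaged 11.32 ± 0.18 in untreated colitis and 11.36 ± 0.12 in untreated healthy mice (SD, n = 4 each), a difference of -0.04 (95% interval -0.23 to 0.15, adjusted p = 0.804).

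Among the membrane mucins Muc1 rose. Muc1, whose cytoplasmic tail takes part in signalling, had 9.05, 9.54, 10.01 and 9.75 in untreated colitis mice, against 8.97, 8.66, 8.66 and 8.69 in untreated healthy mice. The groups did not overlap, and the difference was 0.84 ± 0.15 (1.79-fold, adjusted p = 0.00059). Muc4, which carries EGF-like domains, had 9.36, 9.43, 9.90 and 9.83 in untreated colitis mice, against 9.26, 9.51, 9.24 and 9.37 in untreated healthy mice. Colitis mice 7 and 10 lay above all healthy mice and mice 5 and 6 lay within their range, with a difference of 0.29 ± 0.15 (adjusted p = 0.176). Muc13, the membrane mucin of the colonic surface, averaged 13.62 ± 0.06 in untreated colitis and 13.56 ± 0.08 in untreated healthy mice (SD, n = 4 each). The difference of 0.07 had a 95% interval of -0.06 to 0.19 (adjusted p = 0.473).

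The folding gene Agr2 and the transcription factor gene Spdef rose, with 3 of 4 colitis mice above every healthy mouse in each. Agr2 had 12.28, 12.64, 12.62 and 12.63 in untreated colitis mice, against 12.36, 12.13, 12.15 and 12.25 in untreated healthy mice. Colitis mouse 5 lay below healthy mouse 2, and the difference was 0.32 ± 0.09 (1.25-fold, adjusted p = 0.00952). Spdef had 7.83, 8.43, 8.74 and 8.39 in untreated colitis mice, against 8.04, 7.79, 7.87 and 7.84 in untreated healthy mice. It rose by 0.46 ± 0.13 (1.38-fold, adjusted p = 0.0133), with colitis mouse 5 again inside the healthy range. The Spdef call was lost without untreated colitis mouse 7 (0.33, adjusted p = 0.0561) and when only these 2 groups were fitted (adjusted p = 0.0788).

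**Figure D1:**
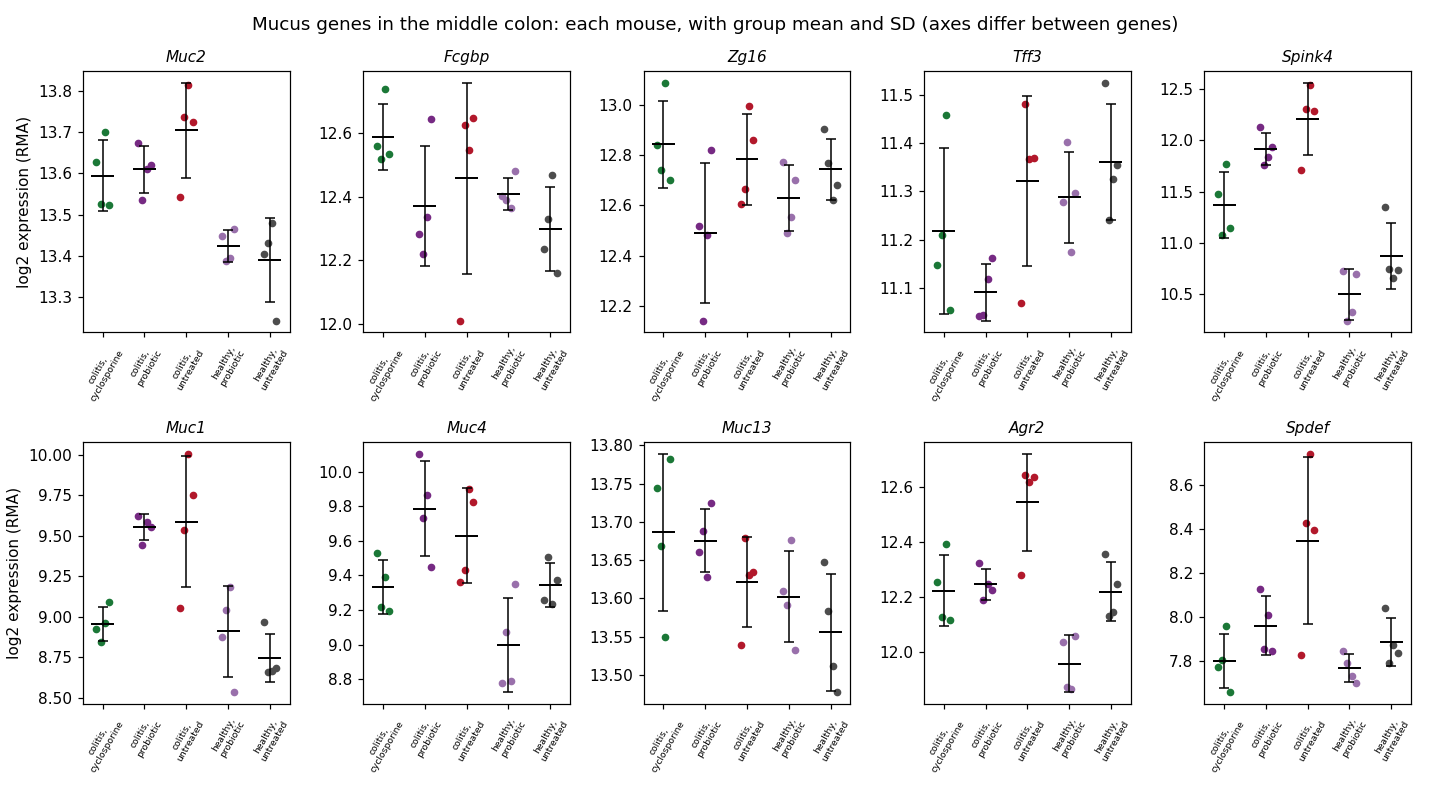
Log2 expression of the 10 mucus genes in each of 20 mice (points), with the group mean and SD (bars, n = 4), in the cyclosporine colitis, probiotic colitis, untreated colitis, probiotic healthy and untreated healthy groups. Each panel has its own axis. Spink4 spans 1.72 between its highest and lowest group mean, while Muc13 spans 0.13.

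The lists of secretory protein folding and of mucin O-glycosylation contained more genes that rose than fell in untreated colitis. The tissue was whole colon, and which cells carried these transcripts was not measured. The lists come from textbook roles and were chosen with earlier results of these data known, so their counts are a description and not a test. They stand beside 11.7% of all genes that rose and 14.4% that fell. Of 10 tested folding genes 7 rose and none fell, with a median of 0.29. The chaperones Hspa5 (0.58 ± 0.12, adjusted p = 0.00138) and Hsp90b1 (0.55 ± 0.07) and the disulphide isomerases Pdia6 (0.36 ± 0.08) and Pdia3 (0.30 ± 0.07) were among them. Of 16 genes of mucin O-glycosylation 7 rose and 1 fell, with a median of 0.32. Galnt3 (1.07 ± 0.13) and Galnt12 (0.89 ± 0.11), which attach the first sugar, and C1galt1 (0.60 ± 0.08), which builds the core 1 glycan, rose, while the sialyltransferase St3gal4 (-1.02 ± 0.13) fell.

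Release, processing and regulatory genes moved in both directions in the same comparison. Of 12 genes of granule release and mucus processing 4 rose and 4 fell, with a median of -0.01. The transporter Slc12a2 (0.49 ± 0.11) and the granule docking gene Sytl2 (0.56 ± 0.14) rose. The transglutaminase Tgm3 (-1.39 ± 0.21) and the meprin subunit Mep1a (-1.23 ± 0.18) fell. Only 2 granule genes rose without untreated healthy mouse 7 or without untreated colitis mouse 7 or 10. Of 12 goblet cell transcription factors Creb3l4 (0.47 ± 0.15) rose and Foxa2 (-0.54 ± 0.12) and Klf4 (-0.38 ± 0.11) fell. The Creb3l4 call depended on single mice, since the count of factors that rose was 0 with any 1 of untreated healthy mice 4 and 7 and untreated colitis mice 7 and 10 left out, and 2 without untreated colitis mouse 5. The count that fell was 1 with any 1 of untreated healthy mouse 7 and untreated colitis mouse 5 left out.

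Among the other mucins and secreted products of the goblet cell 2 of 16 rose and 2 of 16 fell in untreated colitis, beside 11.7% and 14.4% of all genes, shares near that background. Of 10 other secreted products the resistin-like peptide Retnlb (3.36 ± 0.41) and the bacteria-binding Dmbt1 (0.73 ± 0.09) rose and the kallikrein Klk1 (-0.24 ± 0.08, adjusted p = 0.0438) fell, a call that was lost on leaving out any 1 of the 8 mice. Of 6 other mucins tested the membrane mucin Muc3 fell by 0.21 on the log2 scale (adjusted p = 0.00602) and none rose. Without untreated healthy mouse 4 or untreated colitis mouse 10, 1 other mucin rose. The array's annotation gives Muc3 and Muc3a as separate symbols, and whether their probe sets share sequence was not analysed here, so their values are uncertain as to copy. Muc12, Muc17 and Muc20 were not analysed here.

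Markers of other cells differed between the same mice. In whole tissue, fewer cells of a type and less RNA per cell cannot be told apart. The goblet cell list, 11 genes outside the 10, averaged between 8.95 and 9.66 in untreated colitis and between 9.23 and 9.35 in untreated healthy mice, with 3 members up and none down. The lowest of these means was that of untreated colitis mouse 5, which was also the lowest untreated colitis mouse in all 10 mucus genes and had the highest mean of B and plasma cell markers, 10.29. In that list the other untreated colitis mice had 8.55 to 9.42 and untreated healthy mice 7.66 to 8.38, with 4 of 5 markers up and none down. Macrophage markers averaged 7.89 to 9.03 in untreated colitis and 7.77 to 7.89 in untreated healthy mice, with 4 of 8 up and none down. The epithelial list averaged 10.57 to 10.86 in untreated colitis and 10.78 to 10.88 in untreated healthy mice. Absorptive colonocyte markers averaged 10.18 to 10.42 in untreated colitis and 10.90 to 11.16 in untreated healthy mice, and smooth muscle markers 10.31 to 10.66 in untreated colitis and 10.97 to 11.07 in untreated healthy mice. Hox genes of the hindgut, markers of location, averaged 7.38 to 8.11 in untreated colitis and 8.33 to 8.39 in untreated healthy mice. Neutrophil markers averaged 6.42 to 9.80 in untreated colitis and 5.88 to 6.07 in untreated healthy mice. Markers of gastric surface cells, which also make mucus, averaged 5.61 to 5.74 in untreated colitis and 5.57 to 5.71 in untreated healthy mice, and squamous markers 4.98 to 5.39 in untreated colitis and 5.04 to 5.17 in untreated healthy mice, close to the dim level of 5.30. List means take in markers too dim to be tested. The absorptive means cover 8 markers, 7 of them tested, and the squamous means cover 5, 3 of them tested. The part of tissue makeup and position in the mucus gene results was not tested.

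**Figure D2:**
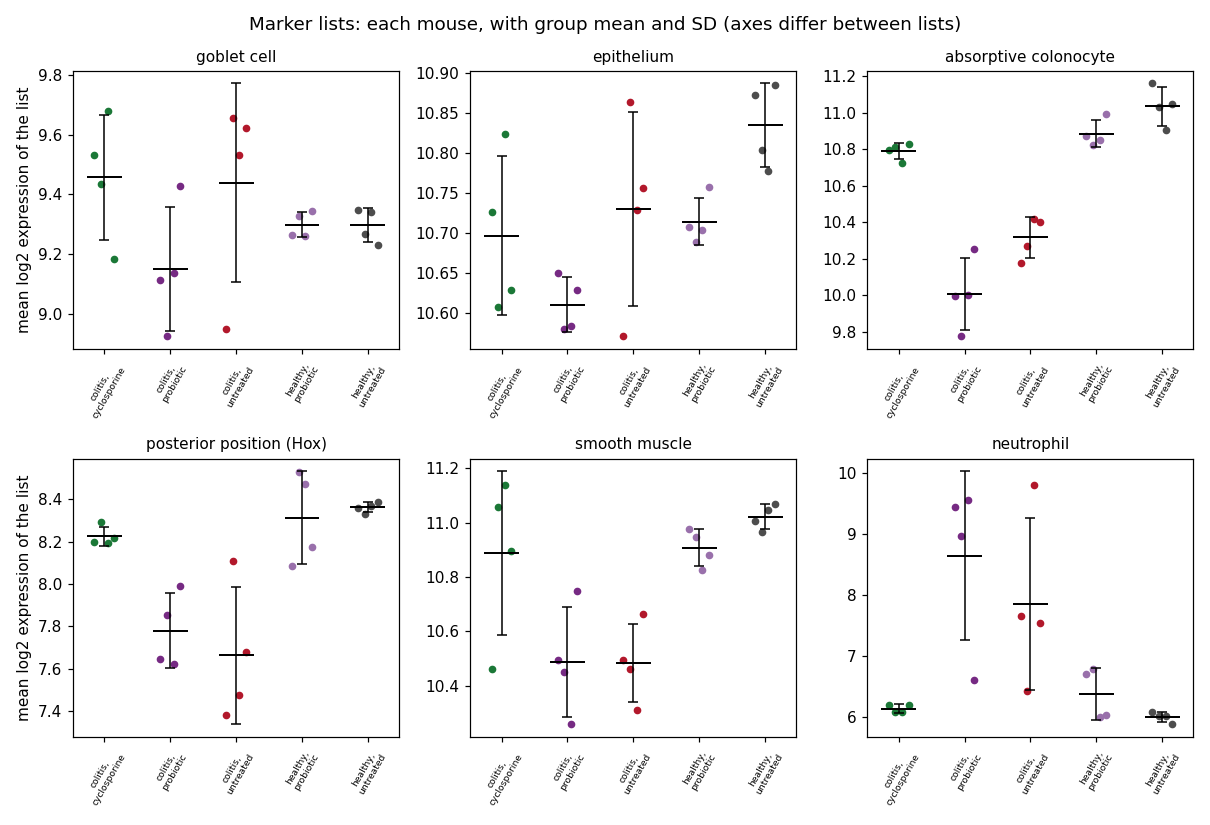
Mean log2 expression of 6 marker lists in each mouse (points), with group mean and SD (bars, n = 4), in the same group order as the mucus genes. Each panel has its own axis. Absorptive colonocyte and Hox means were lower in untreated colitis than in untreated healthy mice, without overlap, and the goblet cell mean of untreated colitis mouse 5 was 8.95.

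With cyclosporine 4 of the 5 genes that rose in untreated colitis were lower than in untreated colitis. Spink4, Muc1, Spdef and Agr2 fell, and Muc2 did not pass. The comparison asks how cyclosporine-treated colitis differs from colitis without the drug. The 4 of 10 that fell stand beside 5.58% of all genes that fell, and none of the 10 rose, beside 7.58% of all genes. This comparison shares its untreated colitis mice with the preceding one, so a gene high in those 4 mice contributes to both, and the 2 sets of values are given side by side and not as independent results.

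The secreted peptide Spink4 and the membrane mucin Muc1 had the largest differences. Spink4 had 11.48, 11.08, 11.77 and 11.14 in cyclosporine colitis mice, against 11.71 to 12.54 in untreated colitis mice. Only cyclosporine mouse 9 overlapped the untreated range, and Spink4 fell by 0.84 on the log2 scale (standard error 0.19, 1.80-fold lower, adjusted p = 0.00618). Muc1 had 8.92, 8.84, 8.96 and 9.09 in cyclosporine colitis mice, against 9.05 to 10.01 in untreated colitis mice. The overlap was that of cyclosporine mouse 10 with untreated mouse 5, and Muc1 fell by 0.63 on the log2 scale (standard error 0.15, 1.55-fold lower, adjusted p = 0.0112).

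The transcription factor and the isomerase followed. Spdef had 7.78, 7.81, 7.96 and 7.66 in cyclosporine colitis mice, against 7.83 to 8.74 in untreated colitis mice. It fell by 0.55 on the log2 scale (standard error 0.13, adjusted p = 0.00969), with 3 of 4 untreated colitis mice above every cyclosporine mouse. Agr2 had 12.26, 12.13, 12.39 and 12.12 in cyclosporine colitis mice, against 12.28 to 12.64 in untreated colitis mice. It fell by 0.32 on the log2 scale (standard error 0.09, adjusted p = 0.0194), a call lost with any 1 of untreated colitis mice 7 and 10 and cyclosporine mice 7 and 10 left out (adjusted p = 0.0501 to 0.0646). When only these 8 arrays were fitted, 1 of the 4 genes, Spink4, was still called.

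The gel mucin Muc2 did not pass, and whether its difference departed from those of the called genes was not tested. Muc2 had 13.63, 13.53, 13.70 and 13.52 in cyclosporine colitis mice, against 13.54 to 13.81 in untreated colitis mice. The ranges overlapped and the difference was -0.11 with a 95% interval of -0.25 to 0.03 (adjusted p = 0.305). Muc4 had a difference of -0.30 (adjusted p = 0.207), Fcgbp 0.13 (adjusted p = 0.515), Tff3 -0.10 (adjusted p = 0.507), Muc13 0.07 (adjusted p = 0.526) and Zg16 0.06 (adjusted p = 0.804).

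The accompanying lists in cyclosporine against untreated colitis stand beside 7.58% of all genes that rose and 5.58% that fell. Of 10 folding genes 7 fell and none rose, with a median of -0.27. P4hb (-0.43 ± 0.07), Pdia6 (-0.39 ± 0.08), Hspa5 (-0.49 ± 0.12) and Hsp90b1 (-0.30 ± 0.07) fell, and the count was 4 with any 1 of untreated colitis mouse 10 and cyclosporine mouse 7 left out and 3 when only these 2 groups were fitted. Of 16 O-glycosylation genes 4 fell and 1 rose, with a median of -0.20. Galnt3 (-0.74 ± 0.13), Galnt12 (-0.64 ± 0.11) and B4galnt2 (-0.60 ± 0.19), which adds a terminal sugar, fell, and St3gal4 (0.55 ± 0.13) rose. The count that fell was 2 with any 1 of untreated colitis mice 7 and 10 and cyclosporine mouse 7 left out, and also 2 without the filter on dim probe sets or with median centring. Retnlb (-2.78 ± 0.41) and Dmbt1 (-0.61 ± 0.09) fell among 10 secreted products and none rose. Mep1a (1.14 ± 0.18) and Tgm3 (1.06 ± 0.21) rose and Slc12a2 (-0.42 ± 0.11) and the transglutaminase Tgm2 (-0.88 ± 0.25) fell among 12 granule and processing genes. Of those that fell, 1 was left with any 1 of untreated colitis mice 7 and 10 and cyclosporine mouse 4 left out, and 0 without cyclosporine mouse 7.

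Regulators and other mucins gave 1 or no call in each direction in the comparison of cyclosporine with untreated colitis, near the shares of all genes. Klf4 (0.39 ± 0.11) rose and the secretory cell factor Bhlha15 (-0.45 ± 0.13) fell among 12 transcription factors, and the count that rose was 0 with any 1 of untreated colitis mice 5 and 10 and cyclosporine mice 4 and 9 left out and 2 without cyclosporine mouse 10. The count that fell was 0 with any 1 of untreated colitis mouse 10 and cyclosporine mouse 9 left out and 2 without untreated colitis mouse 5 or 6. Muc3 rose (0.19 ± 0.05, adjusted p = 0.0236) among 6 other mucins, a call lost with any 1 of untreated colitis mice 5 and 7 and cyclosporine mouse 4 left out, and 1 other mucin fell without untreated colitis mouse 10. Beside these values, the goblet cell list averaged 9.18 to 9.68 in cyclosporine colitis and 8.95 to 9.66 in untreated colitis, with 2 of 11 members up and none down (median -0.16). The Hox list averaged 8.19 to 8.29 in cyclosporine colitis and 7.38 to 8.11 in untreated colitis, and the absorptive list 10.73 to 10.83 in cyclosporine colitis and 10.18 to 10.42 in untreated colitis. The neutrophil list averaged 6.07 to 6.20 in cyclosporine colitis and 6.42 to 9.80 in untreated colitis, and the smooth muscle list 10.46 to 11.14 in cyclosporine colitis and 10.31 to 10.66 in untreated colitis, with 7 of 9 markers up. Their part in the result was not tested.

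**Figure D3:**
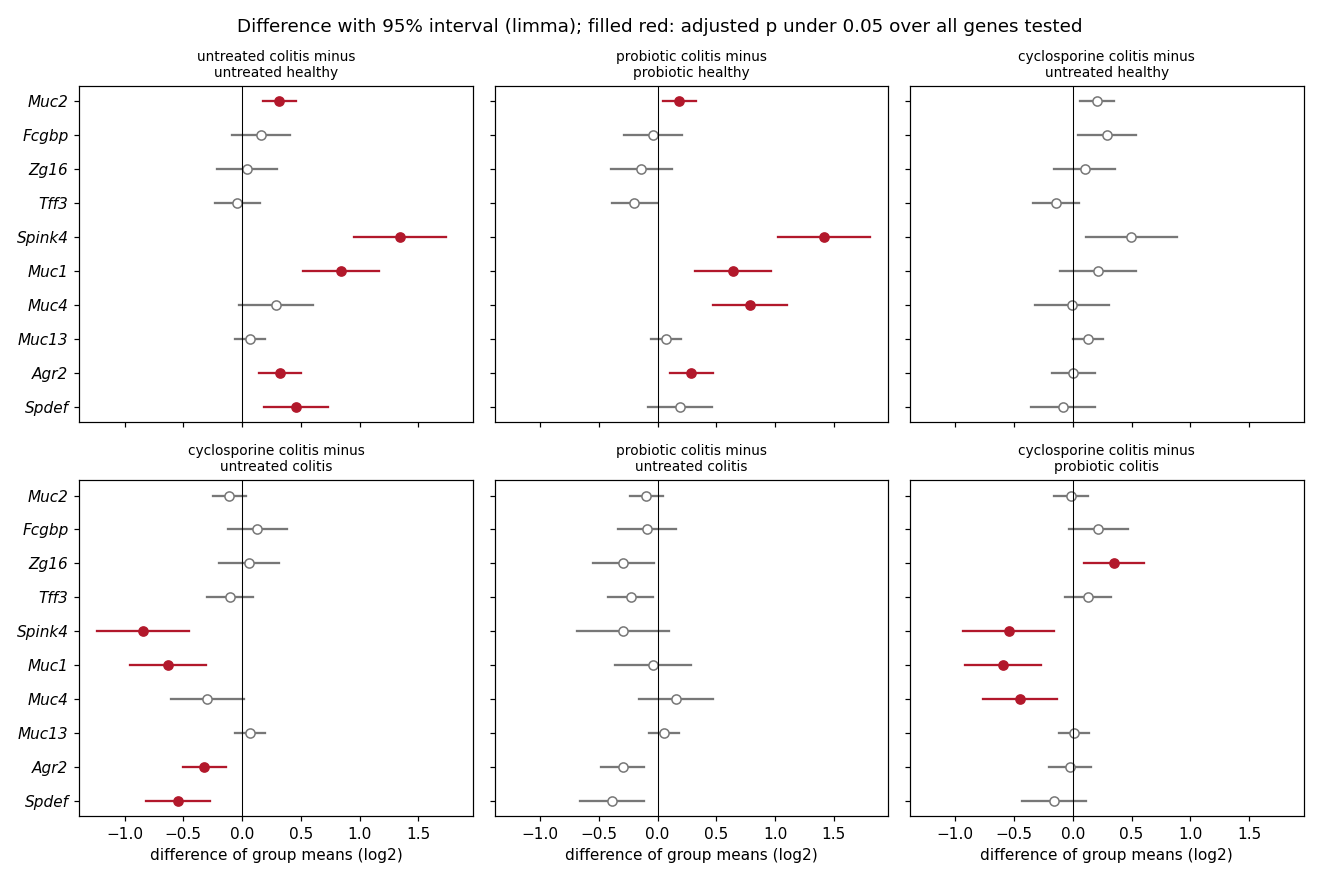
Differences between group means on the log2 scale (points) with 95% intervals from limma (lines) for the 10 mucus genes in 6 comparisons. Filled red points have an adjusted p under 0.05 over all genes tested. Spink4 and Muc1 are red on the right for untreated colitis against untreated healthy mice and on the left for cyclosporine against untreated colitis.

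Cyclosporine colitis and untreated healthy mice differed in none of the 10 genes by the adjusted test. In limma 0 of 10 were called, beside 6.02% of all genes, and 4 had an unadjusted p under 0.05. These were Muc2 (0.21 ± 0.07, adjusted p = 0.0743), Spink4 (0.50 ± 0.19, adjusted p = 0.11), Fcgbp (0.29 ± 0.12, adjusted p = 0.141) and Muc13 (0.13 ± 0.06, adjusted p = 0.196). In Muc2 the 4 cyclosporine mice, at 13.52 to 13.70, lay above the 4 untreated healthy mice, at 13.24 to 13.48. Fcgbp had 12.56, 12.52, 12.74 and 12.53 in cyclosporine colitis mice, against 12.16 to 12.47 in untreated healthy mice, also without overlap. These 2 of 10 stand beside 6.55% of all genes whose groups did not overlap upward. The second Muc2 probe set rose by 0.37 ± 0.08 (adjusted p = 0.0154), so the 2 Muc2 probe sets fall on different sides of the threshold here. For Agr2 the difference was 0.00 with a 95% interval of -0.18 to 0.18, and for Spdef -0.08 with an interval of -0.36 to 0.19, which leaves room for moderate differences. Of the accompanying genes Hsp90b1 (0.25 ± 0.07), C1galt1 (0.36 ± 0.08), Rab27a (0.45 ± 0.12) and Sytl2 (0.49 ± 0.14) rose and St3gal4 (-0.47 ± 0.13) fell. That is 1 of 10 folding genes, 1 up and 1 down of 16 O-glycosylation genes and 2 of 12 granule and processing genes. None of 6 other mucins, 10 secreted products and 12 factors was called. These few calls stand beside 6.02% of all genes and are not read as a change of the lists. Hsp90b1 was lost without untreated healthy mouse 2, 4 or 7 or any cyclosporine mouse, and St3gal4 with any 1 of untreated healthy mice 2, 6 and 7 and cyclosporine mice 4, 9 and 10 left out. Both granule genes were lost with any 1 of untreated healthy mice 2, 6 and 7 and cyclosporine mice 4 and 9 left out, and 1 of them without cyclosporine mouse 7 or 10. Without untreated healthy mouse 2, 2 O-glycosylation genes rose.

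In mice given the probiotic, colitis was accompanied by a rise of the membrane mucin Muc4 as well as Spink4, Muc1, Agr2 and Muc2. The comparison of probiotic colitis with probiotic healthy mice asks what DSS does under the mixture. The 5 of 10 that rose stand beside 13.6% of all genes, and none of the 10 fell, beside 16.1%. The median difference was 0.19 over the 10 genes and -0.04 over all genes. It shares no mice with the comparison of untreated groups.

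Membrane mucins Muc4 and Muc1 both rose under the probiotic. Muc4 had 10.10, 9.73, 9.86 and 9.45 in probiotic colitis mice, against 8.78, 9.07, 8.79 and 9.35 in probiotic healthy mice. The groups did not overlap, and Muc4 rose by 0.79 ± 0.15 (1.73-fold, adjusted p = 0.000507). Muc1 had 9.62, 9.44, 9.59 and 9.56 in probiotic colitis mice, against 8.87, 9.04, 9.19 and 8.54 in probiotic healthy mice, and rose by 0.64 ± 0.15 (adjusted p = 0.00357). The 4 probiotic colitis mice were close together in Muc1, with an SD of 0.08, while untreated colitis mice had an SD of 0.40. Whether the Muc4 difference between colitis and health was larger with the probiotic than without it was tested as an interaction, which gave 0.50 ± 0.21 (adjusted p = 0.525). The interaction called 0 of 10 mucus genes and 0 of all genes in limma, with Muc4 the 1 mucus gene at an unadjusted p under 0.05 and 1446 genes at that level overall.

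Spink4 again had the largest difference of the secreted genes. It had 12.13, 11.76, 11.84 and 11.94 in probiotic colitis mice, against 10.72, 10.24, 10.32 and 10.70 in probiotic healthy mice. No values overlapped, and Spink4 rose by 1.42 ± 0.19 (2.67-fold, adjusted p = 1.73e-05). Muc2 had 13.67, 13.54, 13.61 and 13.62 in probiotic colitis mice, against 13.45, 13.39, 13.39 and 13.46 in probiotic healthy mice. It rose by 0.19 ± 0.07 (adjusted p = 0.0438), a call lost in 12 of 18 alternatives, 7 of them leaving out 1 mouse. Those were any of the 4 probiotic healthy mice and probiotic colitis mice 3, 7 and 8. Agr2 had 12.32, 12.19, 12.25 and 12.22 in probiotic colitis mice, against 12.04, 11.87, 11.87 and 12.06 in probiotic healthy mice, and rose by 0.29 ± 0.09 (adjusted p = 0.016). The Agr2 call was lost with any 1 of probiotic healthy mice 5 and 6 and probiotic colitis mouse 3 left out (highest adjusted p = 0.0524).

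Zg16, Fcgbp, Tff3, Muc13 and Spdef did not pass under the probiotic. Tff3 had 11.04, 11.04, 11.12 and 11.16 in probiotic colitis mice, against 11.28, 11.40, 11.17 and 11.30 in probiotic healthy mice. The colitis mice were all lower, with a difference of -0.20 ± 0.09 (adjusted p = 0.123), which passed with array weights (-0.23, adjusted p = 0.0171). Spdef had 8.13, 7.86, 8.01 and 7.85 in probiotic colitis mice, against 7.84, 7.79, 7.73 and 7.70 in probiotic healthy mice. The colitis mice were all higher, with a difference of 0.19 ± 0.13 (adjusted p = 0.296). In all, 6 of 10 genes did not overlap upward, beside 13.8% of all genes, and 1 did not overlap downward, beside 17.3%. Zg16 had 12.52, 12.14, 12.48 and 12.82 in probiotic colitis mice, against 12.77, 12.49, 12.56 and 12.70 in probiotic healthy mice, with a difference of -0.14 (adjusted p = 0.44). Fcgbp differed by -0.04 (adjusted p = 0.847) and Muc13 by 0.07 (adjusted p = 0.409).

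The accompanying genes were also called in mice given the probiotic, beside 13.6% of all genes that rose and 16.1% that fell. Of 10 folding genes 7 rose and none fell, with a median of 0.37, Hsp90b1 (0.66 ± 0.07) and Pdia6 (0.65 ± 0.08) among them. Of 16 O-glycosylation genes 6 rose and 1 fell, with a median of 0.12. B4galnt2 (1.02 ± 0.19) and Galnt12 (0.66 ± 0.11) rose and St3gal4 (-0.78 ± 0.13) fell. Without probiotic colitis mouse 8, 1 folding gene and 2 O-glycosylation genes fell. Secreted products included 2 that rose and 3 that fell of 10, with Reg4 (-0.67 ± 0.17) falling, and of 12 factors Xbp1 (0.51 ± 0.12), which controls the secretory machinery, rose and 2 fell. That last count was 1 with any 1 of probiotic healthy mouse 4 and probiotic colitis mice 5 and 7 left out. Of 12 granule and processing genes 3 rose and 4 fell, among them the chloride and bicarbonate channel Cftr (-1.05 ± 0.18). Of 6 other mucins Muc3 and Muc3a fell, with 1 of the 2 calls lost on leaving out any probiotic healthy mouse or probiotic colitis mouse 5, 7 or 8. The goblet cell list averaged 8.92 to 9.43 in probiotic colitis and 9.26 to 9.35 in probiotic healthy mice, with 1 of 11 members down and none up (median -0.18). The absorptive list averaged 9.78 to 10.26 in probiotic colitis and 10.82 to 10.99 in probiotic healthy mice. The Hox list averaged 7.62 to 7.99 in probiotic colitis and 8.08 to 8.53 in probiotic healthy mice. Of the markers of other cells, 7 of 8 neutrophil (median 2.44), 5 of 5 B and plasma cell (2.04) and 7 of 8 macrophage markers (1.17) rose, and 7 of 9 smooth muscle markers (-0.42) fell. The neutrophil list averaged 6.60 to 9.56 in probiotic colitis and 5.99 to 6.79 in probiotic healthy mice, and every probiotic colitis mouse, from 9.92, exceeded every probiotic healthy mouse, up to 8.34, in the B and plasma cell list. Their part in these results was not tested.

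Between the probiotic and untreated colitis groups no mucus gene passed the test. In limma 0 of 10 were called, beside 2.80% of all genes, and 4 had an unadjusted p under 0.05, all lower in probiotic colitis. The comparison asks whether the mixture changes the state of the inflamed colon. Agr2 averaged 12.25 ± 0.06 in probiotic colitis and 12.54 ± 0.18 in untreated colitis (SD, n = 4 each), a difference of -0.30 ± 0.09 (adjusted p = 0.0675). Spdef averaged 7.96 ± 0.13 in probiotic colitis and 8.35 ± 0.38 in untreated colitis (SD, n = 4 each), a difference of -0.39 ± 0.13 (adjusted p = 0.113). Tff3 differed by -0.23 ± 0.09 (adjusted p = 0.192) and Zg16 by -0.29 ± 0.12 (adjusted p = 0.215). No gene of the 10 was without overlap between these groups, beside 3.63% of all genes upward and 4.28% downward.

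The outcome of that comparison depended on untreated colitis mouse 5. Without it 3 genes fell: Spdef by 0.56 on the log2 scale (adjusted p = 0.0037), Agr2 by 0.39 (adjusted p = 0.00783) and Tff3 by 0.31 (adjusted p = 0.0383). Without probiotic colitis mouse 8, Zg16 fell by 0.40 on the log2 scale (adjusted p = 0.0459). Calls over all 16739 genes moved too. With all mice 356 rose and 112 fell, without untreated colitis mouse 5 it was 808 and 348, and without probiotic colitis mouse 8 it was 829 and 394. Leaving out any other single mouse gave between 60 and 468 genes that rose and between 11 and 94 that fell. When only these 2 groups were fitted, 0 rose and 0 fell. Muc2 differed by -0.10 (95% interval -0.24 to 0.05), Muc1 by -0.04 (interval -0.36 to 0.29) and Muc4 by 0.16 (interval -0.16 to 0.47), all of which span a modest difference. Of the other genes, Muc3a (-0.80 ± 0.16), Klk1 (-0.36 ± 0.08), C1galt1c1 (-0.34 ± 0.08), which is the chaperone of C1galt1, and C1galt1 (-0.29 ± 0.08) fell, and no factor, folding or granule gene was called. With array weights 5 granule genes, 7 O-glycosylation genes, 3 secreted products, 2 factors and 1 folding gene fell and 1 granule gene rose. In that setting 1063 of all 16739 genes rose and 619 fell. Of 16 O-glycosylation genes 2 fell, a count of 8 without untreated colitis mouse 5, of 1 without mouse 7 and of 0 with any 1 of untreated colitis mice 6 and 10 and probiotic colitis mice 3, 5 and 7 left out. The Muc3a call was lost without probiotic colitis mouse 5. The count of secreted products that fell was 3 with any 1 of untreated colitis mouse 5 and probiotic colitis mouse 8 left out and 0 without any of the others. Without untreated colitis mouse 5, 2 factors, 1 folding gene and 2 granule genes fell and 1 folding gene rose. Without probiotic colitis mouse 8, 2 factors, 1 folding gene and 3 granule genes fell and 1 granule gene rose. The goblet cell list averaged 8.92 to 9.43 in probiotic colitis and 8.95 to 9.66 in untreated colitis, with none of 11 members called (median -0.28). Of 8 macrophage markers 7 rose (median 0.97), with list means of 8.97 to 9.59 in probiotic colitis and 7.89 to 9.03 in untreated colitis. Of 7 absorptive colonocyte markers tested 1 fell (median -0.48). The means of this list, which also take in the dim Slc51a, were 9.78 to 10.26 in probiotic colitis and 10.18 to 10.42 in untreated colitis. Their part in these values was not tested.

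**Figure D4:**
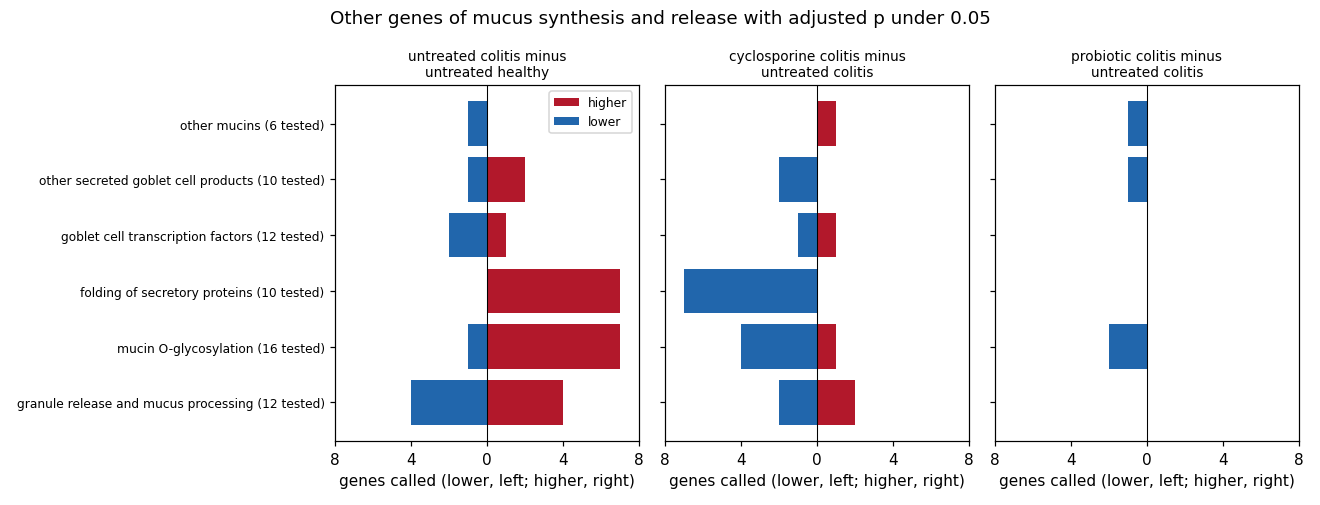
Number of genes that rose (right, red) or fell (left, blue) with adjusted p under 0.05 in 6 lists of genes for mucus synthesis and release, for untreated colitis against untreated healthy mice (left panel), and for cyclosporine (middle) and the probiotic (right) against untreated colitis. Folding genes number 7 up in the first comparison, 7 down in the second and 0 in the third.

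Cyclosporine and probiotic colitis differed in the membrane mucins Muc1 and Muc4, in Spink4 and in the lectin-like Zg16. The membrane mucin Muc13 did not pass (0.01, adjusted p = 0.928). Muc1, Spink4 and Muc4 fell and Zg16 rose in cyclosporine relative to probiotic colitis. The 3 of 10 that fell stand beside 12.0% of all genes, and the 1 that rose beside 11.3%. Muc1 at 8.84 to 9.09 in cyclosporine colitis lay below the 9.44 to 9.62 of probiotic colitis in every mouse, and fell by 0.60 on the log2 scale (standard error 0.15, adjusted p = 0.00856). It was the 1 gene of 10 without overlap downward, beside 11.1% of all genes.

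Muc4, Spink4 and Zg16 were the other calls between cyclosporine and probiotic colitis. Muc4 had 9.53, 9.22, 9.39 and 9.20 in cyclosporine colitis mice, against 9.45 to 10.10 in probiotic colitis mice, and fell by 0.45 on the log2 scale (adjusted p = 0.0346). Spink4 fell by 0.55 on the log2 scale (adjusted p = 0.0397). Zg16 had 12.84, 12.74, 13.09 and 12.70 in cyclosporine colitis mice, against 12.52, 12.14, 12.48 and 12.82 in probiotic colitis mice, and rose by 0.35 ± 0.12 (adjusted p = 0.0455). The Muc4 call was lost with any 1 of probiotic colitis mice 3, 5 and 7 and cyclosporine mice 7, 9 and 10 left out (highest adjusted p over its alternatives 0.133). That of Spink4 was lost without any probiotic colitis mouse or cyclosporine mouse 4, 7 or 10 (highest 0.122), and that of Zg16 with any 1 of probiotic colitis mice 3, 5 and 7 and cyclosporine mice 4, 7 and 9 left out (highest 0.188). Of 10 folding genes 6 fell and none rose, with Hsp90b1 (-0.47 ± 0.07) and Pdia6 (-0.54 ± 0.08) among them. Of 6 other mucins 2 rose and none fell, and of 12 granule and processing genes 3 rose and 1 fell. Of 12 factors 2 rose and 1 fell, with 1 to 4 and 1 to 2 over the alternatives. Of 16 O-glycosylation genes 2 rose and 1 fell, with 0 to 3 and 1 to 4 over the alternatives. These counts stand beside 11.3% of all genes that rose and 12.0% that fell. The secreted products Reg4 (0.96 ± 0.17), Clca1 (0.47 ± 0.10), a protease of the mucus, and Klk1 (0.50 ± 0.08) rose and Dmbt1 (-0.54 ± 0.09) and Retnlb (-1.89 ± 0.41) fell. The goblet cell list averaged 9.18 to 9.68 in cyclosporine colitis and 8.92 to 9.43 in probiotic colitis, with 3 of 11 members up and none down (median 0.25). The macrophage list averaged 8.09 to 8.61 in cyclosporine colitis and 8.97 to 9.59 in probiotic colitis. Of 8 neutrophil markers 7 fell (median -2.59), of 5 B and plasma cell markers 5 fell (-1.59), and of 7 absorptive markers 5 (1.14) and of 9 smooth muscle markers 7 (0.42) rose. Their part in these results was not tested.

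In healthy mice the probiotic was not accompanied by a called change in any mucus gene. In limma 0 of 10 and 0 of 16739 genes were called, with 2 of 10 and 1511 of all genes at an unadjusted p under 0.05. Agr2 had 12.04, 11.87, 11.87 and 12.06 in probiotic healthy mice, against 12.36, 12.13, 12.15 and 12.25 in untreated healthy mice. It was lower in every probiotic mouse, by 0.26 ± 0.09 in size, and did not pass (adjusted p = 0.41). It was the 1 gene of 10 without overlap, beside 2.98% of all genes downward. Muc4 had 8.78, 9.07, 8.79 and 9.35 in probiotic healthy mice, against 9.26, 9.51, 9.24 and 9.37 in untreated healthy mice, a difference of -0.35 ± 0.15 (adjusted p = 0.506). Muc2 averaged 13.42 ± 0.04 in probiotic healthy and 13.39 ± 0.10 in untreated healthy mice (SD, n = 4 each), with a 95% interval of the difference of -0.11 to 0.18. No member of the 6 other lists was called.

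Across the 5 groups the order of means differed between genes. Untreated colitis had the highest mean in Muc1, Muc2, Agr2, Spink4 and Spdef, cyclosporine colitis in Muc13, Fcgbp and Zg16, probiotic colitis in Muc4 and untreated healthy in Tff3. Probiotic healthy mice had the lowest mean in Muc4, Agr2, Spink4 and Spdef. Neighbouring groups in these orders overlapped in all but 3 places. The gaps without overlap were those between cyclosporine and probiotic colitis in Muc1 (8.96 and 9.55), between cyclosporine colitis and probiotic healthy mice in Muc2 (13.59 and 13.42), and between probiotic healthy and untreated healthy mice in Agr2 (11.96 and 12.22). Spink4 had the widest range of group means, 1.72, against a pooled SD within groups of 0.29. Muc13 had the narrowest, 0.13, against a pooled SD of 0.07. Untreated colitis was the group with the largest SD in 8 of the 10 genes, and the exceptions were Muc13 (cyclosporine colitis, 0.10) and Zg16 (probiotic colitis, 0.28).

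Within groups most of the secretory genes varied together from mouse to mouse. After each mouse's value was taken as a deviation from its group mean, Agr2 and Spink4 had Pearson's r of 0.93 over the 20 arrays, Agr2 and Spdef 0.76, Agr2 and Tff3 0.76 and Muc2 and Fcgbp 0.73. Muc13 and Muc4 had lower values, with r between -0.25 and 0.50 to the other 9 genes for Muc13 and between -0.25 and 0.45 for Muc4. These are descriptions without a test. The points share the array, its normalisation and the tissue piece, and untreated colitis mouse 5, low in most of these genes, is one of them. By the same measure the genes most like Muc2 were AU040320 (0.84), the glycosyltransferase gene A4gnt (0.81), the granule docking gene Rab27a (0.80), the proton pump accessory gene Atp6ap2 (0.80) and the transcription factor gene Ets2 (0.79). Without the 2 arrays farthest from their group in Muc2, those of untreated colitis mouse 5 and untreated healthy mouse 7, these were 0.78, 0.82, 0.77, 0.67 and 0.69. Without the same arrays Fcgbp and Muc2 had 0.55 and Muc13 and Muc2 -0.43.

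**Figure D5:**
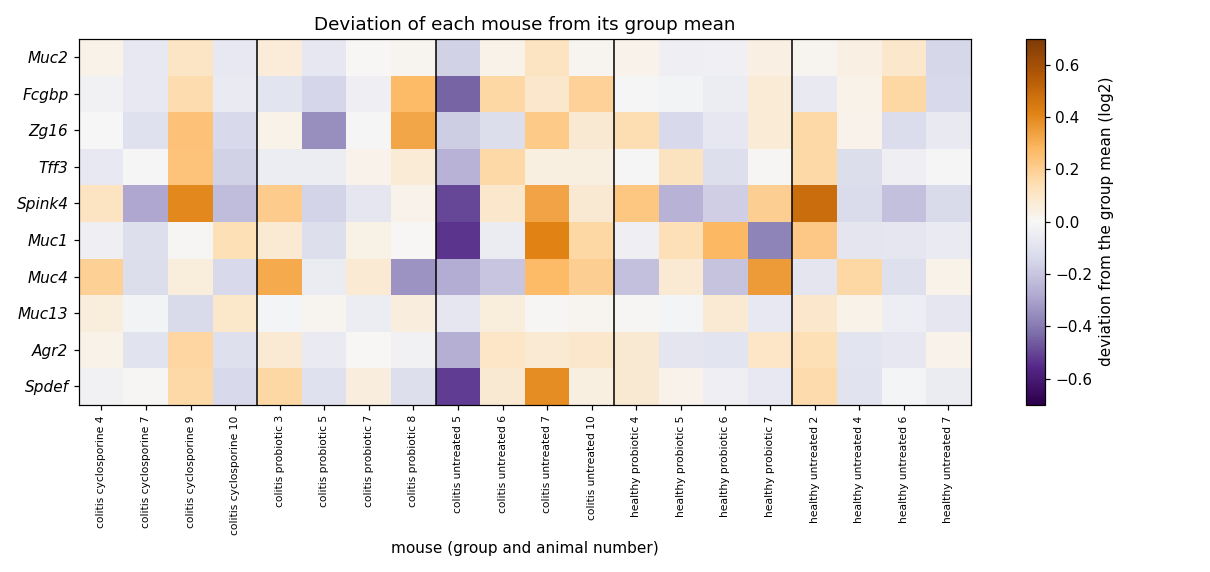
Deviation of each mouse (columns, by group and animal number) from its group mean on the log2 scale, for the 10 mucus genes (rows). Purple is below and orange above the group mean. Untreated colitis mouse 5 is below its group mean in all 10 genes, and cyclosporine mouse 9 is above its own in 9 of 10, Muc13 being the exception.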

How the data were processed

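Total RNA of the middle colon of 20 mice, 4 in each of 5 groups, was biotin-labelled and measured on Affymetrix arrays, 1 per mouse. The deposited values are log2 expression per probe set, which the authors made with RMA, per the submitters' processing notes. Neither the RMA version nor the annotation release is given in the sources used here. No further normalisation was applied. Of 41801 probe sets 29195 had values, and 22360 of these had 1 gene symbol, 1013 several and 5822 none.

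Here a probe set was kept where it exceeded 5.30, the 25th percentile of named probe sets, on at least 4 arrays, and the brightest stood for its gene, which left 16739 of 21423 genes. The fit used limma 3.58.1 (lmFit, eBayes) in R 4.3.3 with 5 group means over all 20 arrays (15 residual degrees of freedom) and 8 comparisons. Promoters are RefSeq's (GRCm38.p6). The 10 genes and all lists were chosen with earlier results of these data known. The rule named all 10 genes, up to 4 genes per list with the smallest p, and the 5 genes most like Muc2. The series states biological replicates. The cage of each mouse was not analysed here. Mice with the same animal number were fitted as unpaired, and r was above 0.1 in 5 of 20 same-numbered pairs, from -0.19 to 0.43. This check cannot exclude a shared cage or batch. On simulated data for untreated colitis against untreated healthy mice (16739 genes), 76.1%, 95.5% and 100% of genes with log2 changes of 0.5, 1 and 2 were recovered, with 4.74% false calls. The simulation changed 67, 67 and 66 genes by these sizes. In the data 1957 genes rose and 2404 fell, so the recovery need not hold there. Alternatives were the filter dropped or set at the 50th percentile (6.60), quantile normalisation again, median centring, trended and robust eBayes, array weights, the mean of probe sets, the animal number as a block, the compared groups alone, leaving out each array, and leaving out the 3 arrays that stood apart in earlier results (mouse 2 of the untreated healthy, 6 of the untreated colitis and 8 of the probiotic colitis group).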

Additional observations from a re-analysis of the deposited data

Results flagged for a closer look

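In 4 of 50 sets of 4 mice, 1 mouse lay far from the other 3 by Dixon's test at the 95% level, which chance alone gives in about 1 of 20 sets. In untreated colitis, mouse 5 had 12.01 in Fcgbp, where the others had 12.55 to 12.65, and 12.28 in Agr2, where the others had 12.62 to 12.64. In untreated healthy mice, mouse 2 had 8.97 in Muc1, where the others had 8.66 to 8.69, and 11.35 in Spink4, where the others had 10.65 to 10.74.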

How the results depend on the processing

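Of 1520 values of the 10 genes under the alternatives, 1400 kept their direction and side of the threshold, 49 lost a call, 15 gained one and 56 turned in sign, none of these last called in any setting. The number of mucus genes called on leaving out 1 array was 4 to 6 in untreated colitis against untreated healthy mice, 3 to 5 in probiotic colitis against probiotic healthy mice, 3 to 4 in cyclosporine against untreated colitis, 1 to 3 in cyclosporine against probiotic colitis and 0 to 3 in probiotic against untreated colitis, and 0 in the other 3 comparisons. For probiotic against untreated colitis it was 1 after quantile normalisation again, where 325 of all genes rose and 178 fell. It was 4 with array weights, where 1063 of all genes rose and 619 fell. For cyclosporine colitis against untreated healthy mice it was 1 with trended and robust eBayes and 1 with the mean of probe sets, and for cyclosporine against untreated colitis it was 1 with the compared groups alone. With the animal number as a block it was 1 for probiotic against untreated colitis and 2 for cyclosporine against probiotic colitis, and the block moved no other count of mucus genes by over 1.5 times. Over all genes, 15 rose and 10 fell with the block in cyclosporine colitis against untreated healthy mice, where 442 rose and 566 fell without it. The block changed single calls as well. Muc1 was not called with it in probiotic colitis against probiotic healthy mice (0.67, adjusted p = 0.0509), in cyclosporine against untreated colitis (-0.68, 0.059) or in cyclosporine against probiotic colitis (-0.72, 0.0865), nor Muc4 in the last (-0.56, 0.0873) or Muc2 in probiotic colitis against probiotic healthy mice (0.20, 0.145), while Zg16 fell in probiotic colitis against probiotic healthy mice (-0.28, 0.0278) and against untreated colitis (-0.46, 0.0247). Under the alternatives other than leaving out 1 array, the counts of the mucus synthesis and release lists moved by at most 2 genes, except where the moved count stands beside them. Moves of the marker list counts were not analysed here. With the compared groups alone, 0 of all genes were called between probiotic and untreated colitis, so the marker calls given there were lost. Values that turned in sign with the block were Tff3 0.036 in untreated colitis against untreated healthy mice, Agr2 -0.021 in cyclosporine colitis against untreated healthy mice, Muc1 0.042 in probiotic against untreated colitis, Zg16 -0.15 in cyclosporine against untreated colitis, Zg16 0.0016, Tff3 0.0016 and Spdef 0.0048 in healthy mice given the probiotic, and Muc13 -0.013 and Spink4 -0.25 in the interaction. With quantile normalisation again they were Tff3 0.025 in untreated colitis, and Muc2 0.0040 and Agr2 0.0075 in cyclosporine against probiotic colitis. With median centring they were Muc4 0.011 in cyclosporine colitis against untreated healthy mice and Muc13 -0.0035 in the interaction. With array weights they were Tff3 0.0052 in untreated colitis, Zg16 -0.0075 in cyclosporine against untreated colitis, and Muc13 -0.015 and Spink4 -0.025 in the interaction. Without the 3 arrays that stood apart they were Muc13 -0.021 and Spink4 -0.061 in the interaction. Leaving out 1 array, Tff3 ranged from -0.093 to 0.045 and Zg16 from -0.032 to 0.098 in untreated colitis, Fcgbp from -0.13 to 0.011 in probiotic colitis against probiotic healthy mice, and Muc4 from -0.075 to 0.045 and Agr2 from -0.054 to 0.049 in cyclosporine colitis against untreated healthy mice. Muc1 ranged from -0.21 to 0.10 in probiotic against untreated colitis, and Fcgbp from -0.019 to 0.19 and Zg16 from -0.022 to 0.13 in cyclosporine against untreated colitis. In cyclosporine against probiotic colitis Muc2 ranged from -0.051 to 0.0080, Agr2 from -0.080 to 0.012 and Muc13 from -0.021 to 0.057. Muc2 ranged from -0.014 to 0.065 in healthy mice given the probiotic, and in the interaction Muc13 ranged from -0.023 to 0.033 and Spink4 from -0.088 to 0.19. The cause of these moves was not tested. Muc2 and Muc13 lie near the top of the array's measured range, and whether this reduced their differences was not tested. With 4 arrays a group small differences can be missed. Of genes with a log2 change of 0.5, 76.1% were recovered in the simulation of untreated colitis against untreated healthy mice. That simulation changed fewer genes than were called in the data.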
